A study of Mus musculus with 7 samples.

Results

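The genes described here are 5 neighbouring protease inhibitor genes of the mouse *Serpina3* cluster (*Serpina3f*, *Serpina3g*, *Serpina3i*, *Serpina3m* and *Serpina3n*) and 3 acute-phase genes found elsewhere in the genome (*Lcn2*, *Saa3* and *Hp*). They are 8 of the 47729 genes in the deposited count table, found by symbol, and were grouped because *Serpina3g* was higher in knockout aorta. The difference between the genotypes is therefore given for them as a description, and counts of calls from the fit over all genes are printed beside their background without being read as support. RNA of mouse aorta was sequenced from animals labelled as *Mmp19* knockouts (KO, 3 libraries, KO-1 to KO-3) and from wild-type animals (WT, 4 libraries, WT-1 to WT-4). *Mmp19* encodes a secreted matrix metalloproteinase. The sources used here do not give the knockout allele, the strain, the age, the sex or any treatment, and do not say whether each library is a separate mouse, so every spread and p-value below is one between libraries.

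Serpins trap a protease by offering a loop that the enzyme cuts and stays bound to. In humans *SERPINA3* encodes antichymotrypsin, an inhibitor of cathepsin G and chymase, whereas in the mouse the gene has been copied into a tandem cluster whose members differ in that loop and so in the proteases they bind. Acute-phase genes are those whose products increase in infection or injury. Interleukin 6 and its relatives act on them through STAT3, and interleukin 1 acts through NF-κB and C/EBP factors. The liver is their best known site of expression, but macrophages, fat cells, endothelium and smooth muscle can make several of them.

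Total estimated counts lay between 68151472 and 76926790 per library. *Mmp19* itself was still counted at 25.5, 11.95 and 15.9 CPM (counts relative to the TMM-scaled total of each library) in KO-1 to KO-3, against 24.8, 24.8, 20.7 and 34.7 CPM in WT-1 to WT-4 (edgeR quasi-likelihood test, adjusted p = 0.368), so that the groups overlapped. The table holds a single value for each gene, so the exons behind these counts are not known, and KO stands for the label. The 8 smooth muscle markers, which identify the main cell type of the aortic wall, summed to 3497, 13734 and 7190 CPM in KO-1 to KO-3 and to 18286 to 20234 CPM in WT.

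The 5 serpin genes lie in tandem on chromosome 12 (GRCm38, plus strand), between *Serpina3f* at 104214544 to 104221129 and *Serpina3n* at 104406729 to 104414329. *Serpina3g* (104236245 to 104241939) and *Serpina3i* (104263122 to 104269372) follow *Serpina3f*, and *Serpina3m* (104338486 to 104394257) precedes *Serpina3n*. The copies are alike enough for reads to be shared. Over aligned coding bases, *Serpina3f* and *Serpina3i* were 92.1% identical, *Serpina3f* and *Serpina3g* 87.4%, *Serpina3g* and *Serpina3i* 86.7%, and *Serpina3n* was 85.0 to 86.0% identical to each of the other 4. Of all stretches of 75 bases in the annotated transcripts of a gene, 7.69% of those of *Serpina3g*, 5.33% of *Serpina3f*, 6.62% of *Serpina3i*, 9.65% of *Serpina3m* and 1.46% of *Serpina3n* also occurred in a transcript of another *Serpina3* gene. At 50 bases these shares were 6.90% for *Serpina3n* and 10.6% to 19.1% for the other 4. *Serpina3m* is also annotated from the same first base as *Serpina3k* (104338486), with which it shares most. Levels of the 4 less abundant serpins are therefore uncertain to the extent that the counting tool, which is not given in the sources used here, divided such reads. *Lcn2*, *Saa3* and *Hp* shared 0% of their stretches of 50 bases with any of the transcripts compared.

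Upstream of 4 of the serpin genes lies a related stretch that holds a motif of the NF-κB type. In *Serpina3f*, *Serpina3g* and *Serpina3i* it is followed by a gamma-activated site (GAS), the palindrome that STAT dimers bind, and in *Serpina3n* by 9 related bases that do not match it. The stretch is shown because these genes sit side by side and the 2 pathways named above end on such motifs. The sequences are from RefSeq on GRCm38.p6, whose promoter table held 6 of the 8 genes and lacked *Serpina3m* and *Hp*. They run 5′ to 3′ on the plus strand, with the NF-κB-type motif and the GAS, or its 9 related bases, in capitals.
Serpina3f, chr12:104214365-104214440: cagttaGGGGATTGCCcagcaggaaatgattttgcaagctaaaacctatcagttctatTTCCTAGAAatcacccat
Serpina3g, chr12:104236056-104236131: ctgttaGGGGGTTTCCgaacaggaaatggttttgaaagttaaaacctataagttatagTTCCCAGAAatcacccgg
Serpina3i, chr12:104262962-104263037: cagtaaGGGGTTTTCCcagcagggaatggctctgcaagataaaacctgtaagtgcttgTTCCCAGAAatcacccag
Serpina3n, chr12:104406531-104406606: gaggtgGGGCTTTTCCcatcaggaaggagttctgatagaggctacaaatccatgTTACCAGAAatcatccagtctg

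Counted from base 1 at the 5′ end of the 9 bases of *Serpina3g*, *Serpina3f* differs by C5T, inside the spacer of the palindrome, and *Serpina3n* by C3A, which takes it out of the GAS pattern. In *Serpina3f*, *Serpina3g* and *Serpina3i* the first base of the GAS lies 52 bases after the first base of the NF-κB-type motif, and in *Serpina3n* that of the related 9 bases lies 48 bases after it. A search for GGGNNNNNCC with TTCNNNGAA beginning exactly 52 bases after its first base, made after this spacing had been seen, found 5 of 32851 RefSeq promoters (0.0152%). They belong to *Serpina3f*, *Serpina3g*, *Serpina3i*, *Scn2a* and *Gm31803*, and the 3 serpins are copies of each other. Either motif alone is common, as TTCNNNGAA stood in 7.02% and GGGNNNNNCC, on either strand, in 45.8% of all promoters in the 250 bases before the start, and both together in 2.66%. RefSeq gives *Serpina3f* a pair of starts, from which its GAS begins at positions -121 and -210. The window before the later start holds neither the NF-κB-type motif nor TATAAA, and the map of motifs shows the earlier one. That of *Serpina3i* begins at -102 and that of *Serpina3g* at -33. GENCODE places the start of *Serpina3g* 98 bases further on, which puts its GAS at -131.

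The promoters of *Serpina3n*, *Lcn2* and *Saa3* lacked a GAS in these 250 bases, and those of *Serpina3m* and *Hp* were not searched. The C/EBP motif TTNNGCAA, searched on both strands, stood in the promoters of *Serpina3f*, *Lcn2* and *Saa3* and in 9.56% of all promoters. The TATA motif TATAAA, on either strand, was found for *Serpina3f* alone of the 6, at position -186, and in 12.4% of all promoters. *Lcn2* had an NF-κB-type motif at -102 and *Saa3* a C/EBP motif at -99, and these are shown in capitals on the minus strand, since both genes lie on it.
Lcn2, chr2:32387801-32387850: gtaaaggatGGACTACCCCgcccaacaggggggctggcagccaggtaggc
Saa3, chr7:46715735-46715784: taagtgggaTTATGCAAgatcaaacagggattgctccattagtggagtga

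**Figure D1:**
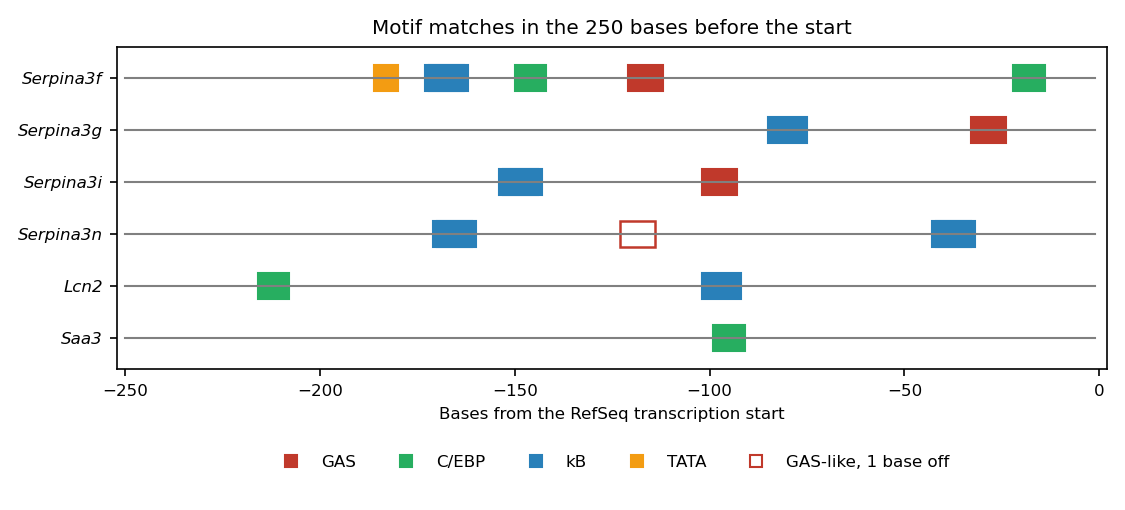
Matches to 4 motifs in the 250 bases before the RefSeq transcription start of 6 genes (x axis: bases from the start; filled boxes: matches on either strand, with overlapping matches drawn together). The pair of an NF-κB-type motif (kB) and a GAS stands at the same spacing of 52 bases in *Serpina3f*, *Serpina3g* and *Serpina3i*, and the open box in *Serpina3n* marks the related 9 bases that differ by C3A from those of *Serpina3g*.

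*Serpina3n*, a secreted inhibitor that in the mouse blocks granzyme B and neutrophil proteases, was the most abundant serpin of the set. It was at 354, 36.6 and 209 CPM in KO-1, KO-2 and KO-3, against 31.4, 21.8, 32.5 and 40.99 CPM in WT-1 to WT-4. KO-1 and KO-3 lay above every WT library, and KO-2 lay inside the WT range. The means were 199.95 ± 159 CPM in KO, against 31.7 ± 7.86 CPM in WT (± SD, 3 KO and 4 WT libraries), a log2 fold change of 2.66 (SE 0.64).

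*Serpina3g*, also called Spi2A, lacks the secretion signal of its relatives and acts inside cells, where it inhibits lysosomal cysteine cathepsins. It was at 7.21, 0.857 and 11.3 CPM in KO-1 to KO-3, against 0.282, 0.493, 0.229 and 0.353 CPM in WT-1 to WT-4. These values rest on 593, 60 and 872 counts in KO and on 18, 35, 16 and 26 counts in WT. The groups did not overlap, KO-3 was highest, and KO-2, the lowest KO library, lay above the highest WT library. The log2 fold change was 4.24 (SE 0.79). This is the gene that chose the set.

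The other 3 serpins were, like *Serpina3g*, at low levels in WT aorta. *Serpina3m* was at 11.5, 0.400 and 6.99 CPM in KO-1 to KO-3, against 0.298, 0, 0.488 and 0.638 CPM in WT-1 to WT-4, a log2 fold change of 4.14 (SE 1.34). *Serpina3i* was at 1.26, 0.0714 and 1.04 CPM in KO, against 0.0784 CPM in WT-1 and 0 in the other WT libraries (log2 fold change 5.29, SE 1.43). It had 104, 5 and 80 counts in KO and 5 counts in all of WT, and was the only gene of the 8 that did not pass the filter on low counts. For both genes KO-1 and KO-3 were high, while KO-2 lay inside the WT range.

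*Serpina3f* was at 0.972, 0 and 2.76 CPM in KO-1 to KO-3, against 0.360 CPM in WT-1 and 0 in WT-2 to WT-4. A count of 0 in KO-2 allows up to 0.0428 CPM, at 3 counts. The log2 fold change of 3.80 (SE 1.95) has the largest standard error of the 8, and it was 9.54 without WT-1, the only WT library in which the gene was counted.

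*Lcn2* (chromosome 2, 32384633 to 32388252, minus strand) encodes lipocalin 2, which binds bacterial iron carriers and is stored in neutrophil granules as well as made by fat cells, macrophages and epithelia. It was at 49.3, 2.299 and 21.4 CPM in KO-1 to KO-3, against 2.35, 2.89, 1.03 and 2.54 CPM in WT-1 to WT-4. KO-1 and KO-3 stood above every WT library and KO-2 inside their range. The log2 fold change was 3.47 (SE 0.87).

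*Saa3* (chromosome 7, 46711998 to 46715700, minus strand) encodes a serum amyloid A protein that the mouse makes mainly outside the liver. It was at 30.5, 0.985 and 8.01 CPM in KO-1 to KO-3, against 0, 0.169, 0.115 and 2.74 CPM in WT-1 to WT-4. Here KO-2 lay below WT-4, which was itself far above the other WT libraries. The log2 fold change was 4.11 (SE 1.71), and 7.07 without WT-4.

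*Hp* (chromosome 8, 109575128 to 109579172, minus strand) encodes haptoglobin, which binds free haemoglobin. It was the most abundant gene of the 8, at 2261, 529 and 1520 CPM in KO-1 to KO-3, against 404, 603, 342 and 574 CPM in WT-1 to WT-4. Its means were 1437 ± 869 CPM in KO, against 481 ± 127 CPM in WT (± SD, 3 KO and 4 WT libraries), and its log2 fold change of 1.58 (SE 0.46) was the smallest of the set. KO-2 again lay inside the WT range.

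**Figure D2:**
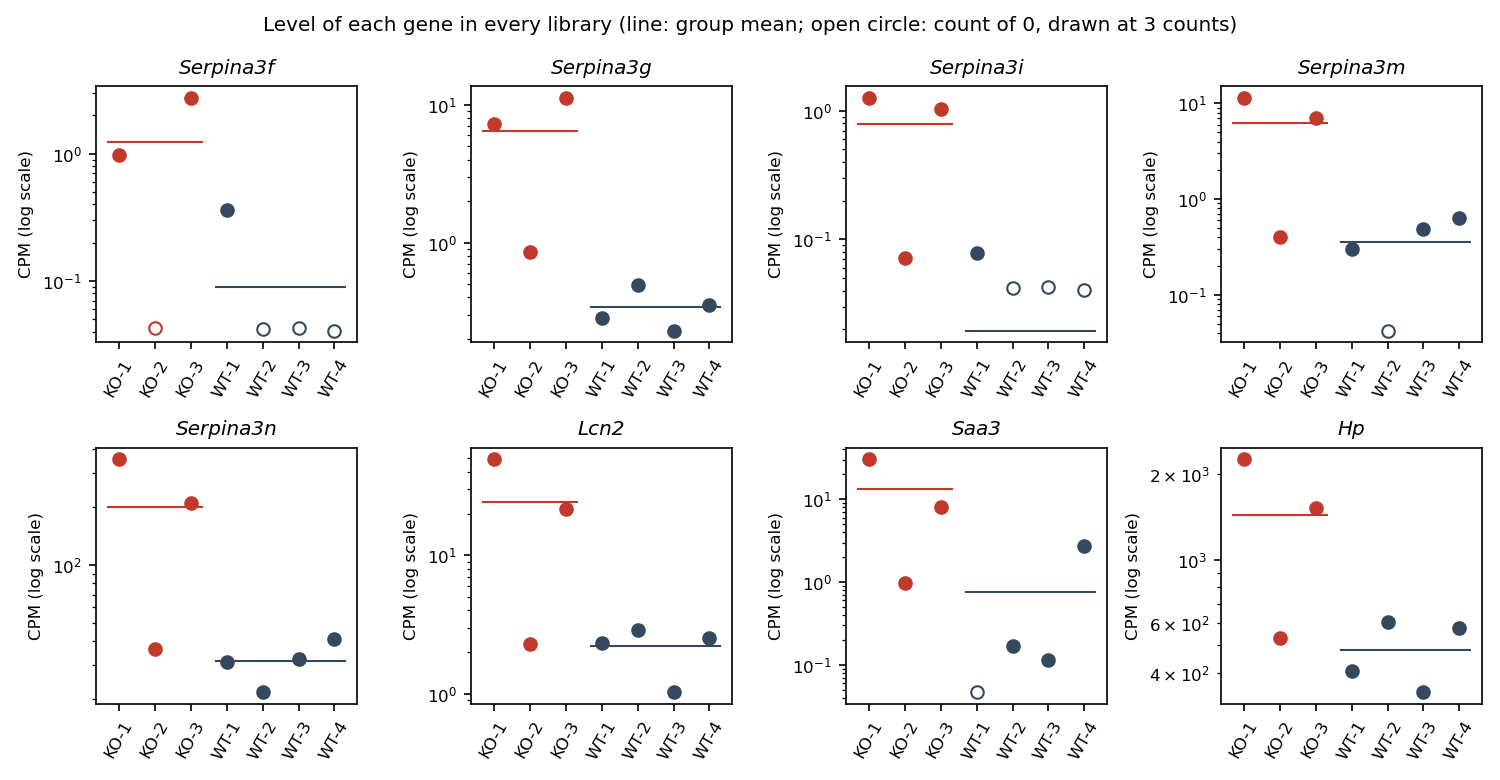
Level of each of the 8 genes in every library (y axis: CPM on a log scale; red: KO; dark blue: WT; line: group mean; open circle: a count of 0, drawn at the level of 3 counts). In all 8 panels KO-1 and KO-3 stand above every WT library, and KO-2 does so for *Serpina3g* alone.

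KO-1 and KO-3 thus exceeded all WT libraries for 8 of the 8 genes, a pattern found in 16.2% of all 19189 genes tested. All 3 KO libraries did so for 1 of the 8, *Serpina3g*, and for 8.17% of all genes. KO-2 alone was above every WT library for the same 1 of the 8, against 19.7% of all genes, and for 0 of the 8 did every KO library lie below every WT library, against 8.56% of all genes. The log2 fold change was positive for 8 of the 8, against 46.9% of all genes. With 7 of the 8 genes past the filter on low counts and *Serpina3i* kept in the fit regardless, edgeR's quasi-likelihood test with Benjamini-Hochberg adjustment called 0 of the 8, where it called 0.0156% of all genes as higher in KO. At an unadjusted p under 0.05 it held 7 of the 8, against 9.93% of all genes. DESeq2 called 6 of the 8, against 6.16% of the genes to which it gave an adjusted p, with *Serpina3f* and *Saa3* not called. Without KO-2, edgeR called 4 of the 8 (*Serpina3g*, *Serpina3n*, *Lcn2* and *Hp*), against 3.34% of the genes then tested. Nothing is read from these counts, since the genes were chosen on this contrast.

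Per kilobase of merged exon length, which allows levels to be compared between genes, the order was the same in both group means. It ran from *Hp* at 895 ± 541 CPM per kb in KO and 299 ± 79.1 CPM per kb in WT, through *Serpina3n* at 96.9 ± 77.1 and 15.3 ± 3.81 CPM per kb, to *Lcn2* at 9.28 ± 9.01 and 0.840 ± 0.309 CPM per kb, in KO and WT (± SD, 3 KO and 4 WT libraries). *Saa3*, *Serpina3m* and *Serpina3g* followed at means of 5.05, 3.66 and 3.07 CPM per kb in KO and of 0.290, 0.207 and 0.161 CPM per kb in WT. In KO the differences among these 3 genes were smaller than the SD of any of them. In WT this held for *Serpina3m* and *Serpina3g*. *Saa3* owed its place in WT to WT-4, at 1.05 CPM per kb, with 0 to 0.0648 CPM per kb in the other WT libraries. *Serpina3f* and *Serpina3i* were lowest, at means of 0.543 and 0.355 CPM per kb in KO and of 0.0393 and 0.00881 CPM per kb in WT. The sum over the 8 genes, most of which was *Hp*, was 2716, 570 and 1781 CPM in KO-1 to KO-3, against 377 to 628 CPM in WT, and that over the 5 serpins was 375, 37.95 and 231 CPM, against 22.3 to 41.98 CPM.

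The KO libraries with high levels did not rank the genes alike. *Serpina3f* and *Serpina3g* were higher in KO-3 than in KO-1, at 2.84 and 1.57 times its level. The other 6 genes were lower in KO-3 than in KO-1, with ratios of 0.819 for *Serpina3i*, 0.673 for *Hp*, 0.608 for *Serpina3m*, 0.590 for *Serpina3n*, 0.435 for *Lcn2* and 0.263 for *Saa3*. Each ratio compares a pair of libraries and has no replicate check.

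**Figure D3:**
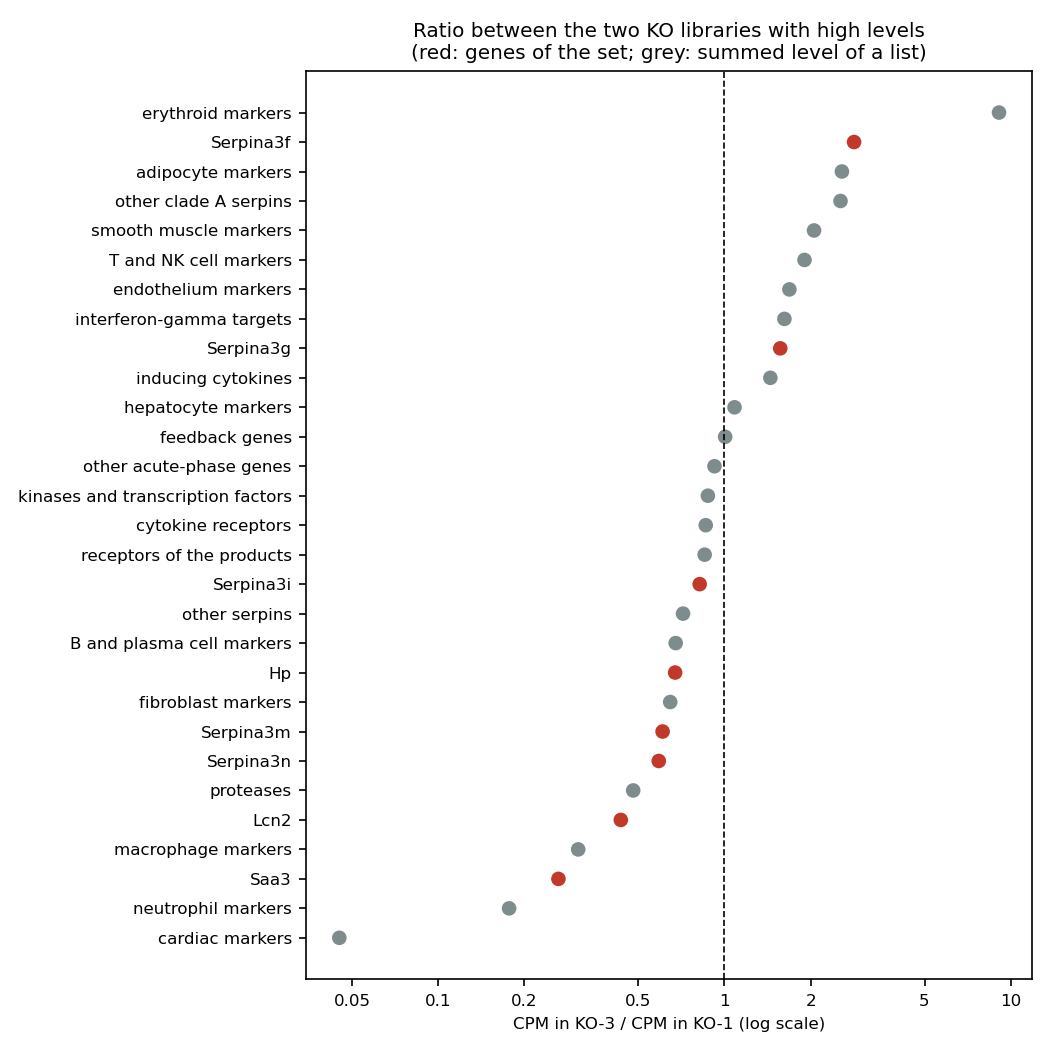
Level in KO-3 divided by that in KO-1 (x axis, log scale) for the 8 genes (red) and for the summed CPM of all 21 gene lists (grey). *Serpina3f* (2.84) and *Serpina3g* (1.57) stand right of 1 with 10 lists, from the erythroid markers (9.10) to the feedback genes (1.01), and the other 6 genes stand left of 1 with 11 lists, down to the cardiac markers (0.0452).

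Markers of other cell types varied with these genes. The 8 macrophage markers, all positive in the fit, summed to 3509, 608 and 1082 CPM in KO-1 to KO-3, against 273 to 472 CPM in WT, with KO-2 too above every WT library. The 10 neutrophil markers, of which 7 had a positive log2 fold change, summed to 337, 14.3 and 59.6 CPM in KO, against 4.62 to 20.8 CPM in WT. Both sums were highest in KO-1 and next in KO-3, the order of *Serpina3i*, *Serpina3m*, *Serpina3n*, *Lcn2*, *Saa3* and *Hp*. Among the positive neutrophil markers, *Csf3r* was at 173, 3.87 and 23.8 CPM in KO-1 to KO-3, against 1.29, 2.38, 1.39 and 2.04 CPM in WT-1 to WT-4. *Mpo*, the granule enzyme of immature cells and 1 of the 3 negative markers, was at most 0.233 CPM in KO and 1.19 CPM in WT. Their part in the result was not tested, and in RNA of whole tissue more cells of a type and more RNA per cell cannot be told apart.

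Fat and liver, known sources of haptoglobin, gave different readings. The 8 adipocyte markers, with a median log2 fold change of 0.03, summed to 2528, 4301 and 6503 CPM in KO-1 to KO-3, against 3520, 6399, 3276 and 4985 CPM in WT-1 to WT-4. In WT the libraries had the same order by this sum as by *Hp*, with WT-2 highest, then WT-4, WT-1 and WT-3. In KO they did not, since KO-1 had the most *Hp* and the lowest adipocyte sum. These are orders of a few libraries, and the source of *Hp* was not tested. The 8 hepatocyte markers, most of whose sum was *Cyp2e1* and *Trf*, summed to 439, 504 and 476 CPM in KO-1 to KO-3, against 341 to 541 CPM in WT. Of them, *Alb*, serum albumin, was at 0 in KO-1, KO-3 and WT-1 to WT-3, at 0.528 CPM in KO-2 and at 1.85 CPM in WT-4. The 8 T and natural killer cell markers summed to 17.0 to 45.0 CPM in KO and to 11.9 to 131 CPM in WT, with WT-2 alone at 131 CPM.

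**Figure D4:**
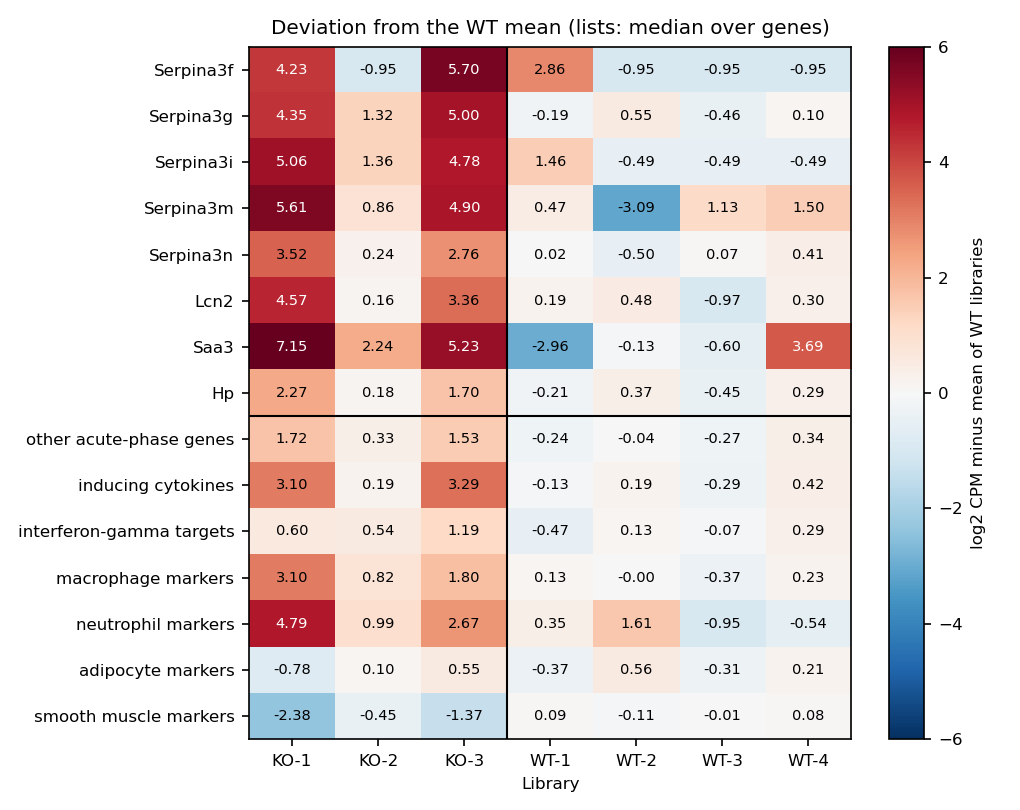
Deviation of log2 CPM from the mean of the WT libraries for the 8 genes (upper block) and for 7 gene lists (lower block, median over the genes of a list), in KO-1 to KO-3 and WT-1 to WT-4. The 8 genes deviate by 1.70 or more in KO-1 and KO-3, whereas in KO-2 they range from -0.95 to 2.24.

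The cytokines that induce acute-phase genes were examined next, from gene lists that do not hold any of the 8 genes. Of 13 inducing cytokines 9 were tested, and all 9 had higher fitted levels in KO (median log2 fold change 2.81, where that of all genes was -0.03), a sign that 46.9% of all genes shared. *Il6*, interleukin 6, was at 6.37, 0.214 and 18.2 CPM in KO-1 to KO-3, against 0.0679 CPM in WT-4 and 0 in the other WT libraries. With 5 counts in all of WT, *Il6* passed the filter on low counts only through KO. Its sign among the 9 was therefore fixed by that filter. *Il1b*, interleukin 1β, was at 17.1, 1.21 and 28.1 CPM in KO, against 0.1254, 0.282, 0.186 and 0.434 CPM in WT. *Osm*, oncostatin M of the interleukin 6 family, was at 3.72, 0.171 and 6.31 CPM in KO, against 0.0861 to 0.239 CPM in WT. In each of these 3 cytokines KO-3 was highest and KO-1 next, and KO-2 was lowest of the KO libraries. The adjusted p in edgeR's quasi-likelihood test was 0.165 for *Il6* and *Il1b* and 0.172 for *Osm*. The 4 cytokines not tested were *Ifng*, *Il17a*, *Il22* and *Csf3*, and *Ifng*, interferon-γ, reached at most 0.0777 CPM in KO and was at 0 in WT.

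Their receptors and signalling genes showed smaller differences. Of 14 receptor genes tested 11 were positive, with a median of 0.38. *Osmr*, the oncostatin M receptor, was at 147, 84.5 and 142 CPM in KO-1 to KO-3, against 39.5 to 58.9 CPM in WT, so that the groups did not overlap even in KO-2. *Il1r1*, the interleukin 1 receptor, averaged 92.0 ± 42.1 CPM in KO, against 48.6 ± 2.44 CPM in WT, and *Tnfrsf1b*, a receptor of tumour necrosis factor, 64.7 ± 49.3 and 15.0 ± 1.60 CPM (± SD, 3 KO and 4 WT libraries). Among 15 kinases and transcription factors, 12 were positive, with a median of 0.44. *Stat3*, the factor downstream of interleukin 6, averaged 222 ± 64.9 CPM in KO, against 136 ± 11.7 CPM in WT, and *Bcl3*, an NF-κB partner, 30.6 ± 18.6 and 8.14 ± 3.62 CPM (± SD, 3 KO and 4 WT libraries). Of the 9 feedback genes 8 were positive, with a median of 0.43. *Socs3*, the inhibitor that STAT3 induces, was at 109, 17.5 and 78.1 CPM in KO-1 to KO-3, against 6.56 to 12.4 CPM in WT (log2 fold change 2.76, SE 0.55, adjusted p = 0.165 in edgeR). *Pim1*, a kinase gene that STATs induce, averaged 75.5 ± 23.2 CPM in KO, against 40.9 ± 11.1 CPM in WT, and *Myc* 19.0 ± 11.1 and 8.49 ± 1.65 CPM (± SD, 3 KO and 4 WT libraries).

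The other acute-phase genes were set beside the 8. Of 29 listed, 21 were tested and 18 were positive, with a median log2 fold change of 1.19. *Ptx3*, the long pentraxin that vessel wall and myeloid cells make, was at 58.0, 3.81 and 79.2 CPM in KO-1 to KO-3, against 2.25 to 2.85 CPM in WT (log2 fold change 4.21, SE 0.83, edgeR adjusted p = 0.165). *Cd14*, the lipopolysaccharide coreceptor, averaged 38.2 ± 20.3 CPM in KO, against 8.63 ± 3.05 CPM in WT, and *C4b*, a complement component, 536 ± 223 and 235 ± 55.5 CPM (± SD, 3 KO and 4 WT libraries). The 17 interferon-γ target genes had a median of 0.84, with 15 positive. Their summed level was 348, 323 and 564 CPM in KO-1 to KO-3, against 156 to 280 CPM in WT, so that KO-2 too lay above every WT library. *Irgm1*, an interferon-inducible GTPase, averaged 31.4 ± 6.78 CPM in KO, against 17.0 ± 3.30 CPM in WT, *Ciita*, the activator of class II genes, 13.5 ± 11.1 and 2.84 ± 1.16 CPM, and *Cxcl10*, a chemokine, 6.61 ± 3.87 and 1.62 ± 0.644 CPM (± SD, 3 KO and 4 WT libraries).

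The genes of a protease list, whose binding to these serpins was not tested, and receptors for the secreted products were mostly positive. Of 12 proteases tested 10 were positive, with a median of 0.65. The cysteine cathepsins *Ctss* and *Ctsk* averaged 186 ± 195 and 71.1 ± 8.46 CPM in KO, against 15.0 ± 4.25 and 46.4 ± 8.52 CPM in WT, and *Ctsc*, which activates neutrophil proteases, 244 ± 222 CPM in KO, against 67.7 ± 10.4 CPM in WT (± SD, 3 KO and 4 WT libraries). Of 11 receptors tested 9 were positive, with a median of 0.40. *Fpr2*, a receptor for serum amyloid A, averaged 2.77 ± 2.93 CPM in KO, against 0.124 ± 0.0633 CPM in WT, and *Tlr2*, a pattern receptor reported to respond to it, 23.3 ± 10.2 and 8.87 ± 1.82 CPM. *Slc22a17*, described as a receptor of lipocalin 2, was at 10.7, 15.1 and 12.1 CPM in KO-1 to KO-3, against 20.1 to 36.3 CPM in WT (log2 fold change -0.95, SE 0.26, adjusted p = 0.181 in edgeR).

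Over these lists and 2 lists of other serpins, edgeR's quasi-likelihood test called 0 of 130 tested genes after adjustment over all genes. At an unadjusted p under 0.05 it held 57 higher and 5 lower, against 9.93% and 7.27% of all genes. DESeq2 called 36 higher and 2 lower among the 119 of them to which it gave an adjusted p, against 6.16% and 3.54% of all genes. Without KO-2, edgeR called 32 list genes as higher and 1 as lower among the 137 that it then tested, against 3.34% and 1.81% of all genes then tested. The lists were chosen with earlier results of these data known. Some of their genes, among them *Il6* and *Serpina3h*, passed the filter on low counts only through KO.

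**Figure D5:**
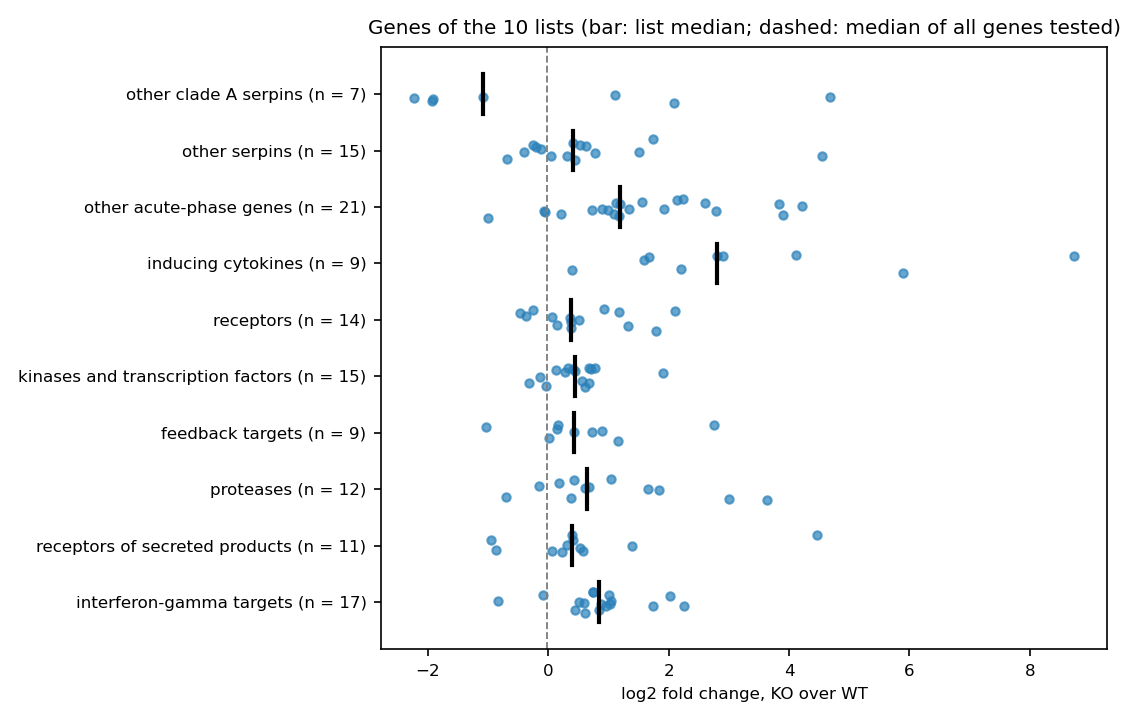
Log2 fold change of KO over WT (x axis) for every tested gene of the 10 lists, in rows (points: genes; black bar: median of the list; dashed line: median of all genes tested, -0.03). The inducing cytokines (median 2.81) and the other acute-phase genes (1.19) lie furthest to the right, and the other clade A serpins have a median of -1.09.

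*Serpina3h*, annotated as a transcribed pseudogene between *Serpina3g* and *Serpina3i*, was at 0.644, 0.186 and 0.673 CPM in KO-1 to KO-3, against 0.0704 CPM in WT-2 and 0 in the other WT libraries. Of its stretches of 50 bases, 21.9% occurred in another *Serpina3* gene. *Serpina3c* was at 12.04, 7.84 and 32.4 CPM in KO, against 6.32 to 10.1 CPM in WT (log2 fold change 1.11, SE 0.46, edgeR adjusted p = 0.282), with KO-3 highest and KO-2 inside the WT range. *Serpina3k*, the gene that shares most sequence with *Serpina3m*, was at 0.304, 0.286 and 1.05 CPM in KO-1 to KO-3. In WT-1 to WT-4 it was at 0.110, 0.127, 0 and 0.272 CPM (log2 fold change 2.08, SE 1.01). The CPM of the groups did not overlap, but KO-2 and WT-4 both had 20 counts of *Serpina3k* and differed only through library scaling. Groups without overlap and with KO higher were found for 8.17% of all genes. *Serpina3b* was at 0.170, 0 and 0.272 CPM in KO, against 0.0784, 0, 1.19 and 0 CPM in WT (log2 fold change -1.09, SE 1.86). *Serpina3a* and *Serpina3j* were at 0 in every library. Of 19 other clade A serpins 7 were tested, 3 with a positive and 4 with a negative log2 fold change. Among the positive ones, *Serpina3h*, with 5 counts in all of WT, passed the filter on low counts only through KO. Outside clade A, 10 of 15 serpins were positive, with a median of 0.41. *Serpinb9*, the granzyme B inhibitor of leukocytes, averaged 53.2 ± 10.04 CPM in KO, against 36.9 ± 6.27 CPM in WT, *Serpinb1a*, an inhibitor of neutrophil proteases, 18.5 ± 18.2 and 5.50 ± 1.28 CPM, and *Serpinb6b* 64.9 ± 8.96 and 47.6 ± 7.68 CPM (± SD, 3 KO and 4 WT libraries).

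The genes whose profile over the 7 libraries was nearest to that of *Serpina3g*, by the root mean square difference of log2 CPM after centring each gene on its mean, were *Ptx3* at 0.46, *Osm* at 0.54, *Trim30b* at 0.55, *H19* at 0.57 and *Jaml* at 0.59, out of 14778 genes with a mean of 1 CPM or more. *H19*, an imprinted noncoding RNA, was at 131, 12.3 and 73.4 CPM in KO-1 to KO-3, against 3.14 to 5.28 CPM in WT. By this measure *Lcn2* ranked 16th, *Serpina3n* 84th, *Hp* 300th, *Serpina3m* 1155th and *Saa3* 3866th. Nearest to *Serpina3n* were *Plek*, which encodes the leukocyte and platelet protein pleckstrin, at 0.21, *Socs3* at 0.22, *Adamts4*, an aggrecan-cleaving protease, at 0.34, *Rtn4rl2* at 0.34 and *Mmp25*, a membrane-bound metalloproteinase of leukocytes, at 0.36. *Plek* was at 135, 14.8 and 63.5 CPM in KO, against 8.31 to 10.97 CPM in WT. For *Serpina3n*, *Hp* ranked 203rd, *Lcn2* 245th, *Serpina3g* 725th, *Serpina3m* 7400th and *Saa3* 14238th, so the genes of the set were not all near by this measure. The measure takes in the size of changes and the spread within WT. There *Serpina3m* was at 0 in WT-2, and *Saa3* ranged from 0 to 2.74 CPM. *Serpina3f* and *Serpina3i* had means below 1 CPM and were not ranked. The distances describe 7 libraries that differ in genotype, and carry no test.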

How the data were processed

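Per the labels' protocols, a SMARTER kit turned aorta RNA into libraries. Estimated counts for each Ensembl gene were deposited by the authors for 7 libraries, as whole numbers without scaling, and all 7 columns were used. The submitters' processing notes name GRCm38 and mm10. Which aligner and counter were used, and whether reads were paired or counted by strand, is not given in the sources used here. Low counts piled up at multiples of 4, each holding 1.23 to 1.32 times as many genes as the counts next to it, so that how many reads a count stands for is not known, and limits at 3 counts cover counting error only. Of 47729 identifiers 47224 matched a symbol. Positions and exon lengths are from GENCODE M21 and promoters from RefSeq (GRCm38.p6). Amino acid sequences were not used here, and coding bases were aligned in place of proteins with Biopython 1.88.

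KO was compared with WT in R 4.3.3 with edgeR 4.0.16 (filterByExpr with the 8 genes kept regardless, TMM, glmQLFit and glmQLFTest without covariates) over 19189 genes, with Benjamini-Hochberg adjustment and a threshold of 0.05. Each standard error (SE) of a log2 fold change was derived from this test, as its absolute value divided by the square root of the F statistic. The procedure was tested on simulated data. Alternatives were other scalings and filters, DESeq2 1.42.0, limma-voom 3.58.1, division of counts by 4, leaving out each library, and a block for the replicate number. The 8 genes and the lists (10 of pathway genes with 161 genes, 11 of cell type markers) were chosen with earlier results of these data known. Besides the 8 genes, the rule named the 3 genes of each pathway list with the smallest p and the 5 genes nearest in profile to *Serpina3g* and to *Serpina3n*. *Mmp19*, *Ifng*, *Csf3*, *Il17a*, *Il22*, *Csf3r*, *Mpo*, *Alb*, *Serpina3a*, *Serpina3b*, *Serpina3j*, *Serpina3k* and the hepatocyte markers *Cyp2e1* and *Trf* fall outside it, and their values were known when they were chosen. A gene that this rule named is not reported here.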

Additional observations from a re-analysis of the deposited data

Results flagged for a closer look

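In 8 of 58 groups of 4 WT libraries examined, 1 library stood apart from the other 3, by a gap that took up most of the range of the group (Dixon's criterion). Chance gives such a gap in about 1 in 20 groups of normally distributed values. For *Serpina3f*, *Serpina3i*, *Serpina3h* and *Il6* the other WT libraries were all at 0, where any count in 1 library is flagged. The 8 flags can therefore not be set against that rate. WT-1 was the only WT library with counts for *Serpina3f* (0.360 CPM) and *Serpina3i* (0.0784 CPM), and WT-4 stood apart for *Saa3* (2.74 CPM) and *Il6* (0.0679 CPM). WT-2 stood apart for *Serpina3h* (0.0704 CPM) and for the summed T and natural killer cell markers (131 CPM), WT-3 was low for *Osm* (0.0861 CPM), and WT-3 was high for *Slc22a17* (36.3 CPM).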

How the results depend on the processing

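All 8 genes kept a positive log2 fold change under the 15 alternatives tried, and 117 of the 120 values moved by less than the spread between libraries. The 3 that moved more were those of *Serpina3f* (9.54) and *Serpina3i* (8.91) without WT-1 and of *Saa3* (7.07) without WT-4, where a single WT library had held all or most of the WT counts. The lowest values came without KO-1 or KO-3, at 1.09 for *Hp*, 1.95 for *Serpina3n*, 2.43 for *Lcn2*, 2.58 for *Saa3*, 2.48 for *Serpina3f* and 3.59 for *Serpina3g*. The count of 3 genes called by edgeR was 1610 with DESeq2, 7 with limma-voom, with counts divided by 4 or with at least 50 counts in 3 libraries, and 0 without a filter. Leaving out 1 library gave 0 to 1029 calls, with 1029 without KO-2 and 0 without any other library. Of the list genes 0 were called, but 38 with DESeq2, and 0 to 33 when 1 library was left out, with 33 without KO-2. With the replicate number as a block edgeR called 0 genes. Same-numbered libraries deviated together with correlations of 0.0547, 0.0693 and 0.340, and KO-3 alone correlated best with its own number, so the numbers were not taken as pairs. The cause of these changes was not tested. No scaling moved the median of all genes by 0.1 or more. *Serpina3f* and *Serpina3i* had counts in 1 WT library each, WT-1, whose total was the lowest of the 7, and their fold changes are imprecise.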

Other observations

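*Serpina1b*, an α1-antitrypsin gene of the same clade and chromosome as the *Serpina3* copies, was at 0.0608, 0.514 and 0.609 CPM in KO-1 to KO-3, against 2.71, 0.831, 1.23 and 1.25 CPM in WT-1 to WT-4 (log2 fold change -1.93, SE 0.78, edgeR adjusted p = 0.268), with every KO library below every WT library. Red cell transcripts, whose haemoglobin is what haptoglobin binds, summed over 7 erythroid genes to 790, 2304 and 7185 CPM in KO-1 to KO-3, against 638, 2723, 1249 and 1361 CPM in WT-1 to WT-4, an order of libraries that differs from that of *Hp*. The 8 cardiac markers summed to 795, 1336 and 35.9 CPM in KO-1 to KO-3, against 89.3 to 157 CPM in WT. KO-1 was high both by this sum and for the 8 genes, KO-2 by this sum and KO-3 for the 8 genes, and the part of heart tissue in any of these values was not tested.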
